A study of Mus musculus with 4 samples.

Results

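The miR-10 and miR-196 families are miRNAs that lie inside the Hox clusters. Of their names, 6 were looked up here by exact match in the deposited tables of 869 detected miRNAs: miR-10a-5p, miR-10a-3p, miR-10b-5p, miR-10b-3p, miR-196a-5p and miR-196b-5p. Reads were found for 5 of the 6, and 4 had at least 10 reads in every sample. The samples were myotubes of C2C12, an established mouse skeletal muscle cell line, taken 6 days after differentiation was started in low-serum medium with horse serum. The labels give a strain background of 129/Rej. There were 2 samples without guanidinoacetic acid (NC-1 and NC-2) and 2 with 20 mM of it (GAA-1 and GAA-2). Guanidinoacetic acid is the direct precursor of creatine. All 4 samples come from this 1 line, and nothing in the labels says whether samples of a group came from separate cultures, so p-values measure the spread between these samples, which may be technical.

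Hox genes encode transcription factors that give cells of the embryo their position along the head-to-tail axis, and their order on the chromosome matches the order of their expression along it. Cells taken from the body often keep part of this Hox pattern in culture. miR-10 genes lie beside the Hox4 genes and miR-196 genes beside the Hox9 and Hox10 genes. Both families pair with Hox transcripts, and Hoxb8 is the best known target of miR-196.

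The guide strands of each family are nearly the same molecule. RefSeq (GRCm38.p6) gives the sequences below, from 5′ to 3′, with the seed, bases 2 to 8, in capitals. They are shown because 1 base decides which paralog a read is given to.
miR-10a-5p: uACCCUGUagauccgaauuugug
miR-10b-5p: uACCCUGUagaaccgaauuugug
miR-196a-5p: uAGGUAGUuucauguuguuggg
miR-196b-5p: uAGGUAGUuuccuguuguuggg
miR-10a-5p and miR-10b-5p differ by 1 base, U12A, where the base of the first, the position from the 5′ end and the base of the second are given in turn. miR-196a-5p and miR-196b-5p differ by A12C. Both differences lie outside the seed. Among 1679 mature names in the RefSeq table, the miR-10 seed is held by 2 names, miR-10a-5p and miR-10b-5p, and the miR-196 seed by 2 names, miR-196a-5p and miR-196b-5p. The 7 bases of the miR-196 seed also stand in let-7a-5p, at bases 3 to 9, shifted by 1 base from the let-7 seed. How many mismatches were allowed when reads were given to names is not given in the sources used here, so a misread base 12 could move a read between paralogs.

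The passenger strands tell the loci apart better, and are shown for that reason, with bases 2 to 8 in capitals.
miR-10a-3p: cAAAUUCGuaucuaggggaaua
miR-10b-3p: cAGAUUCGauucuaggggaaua
miR-196a-1-3p: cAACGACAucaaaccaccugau
miR-196a-2-3p: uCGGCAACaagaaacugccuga
miR-10a-3p and miR-10b-3p differ at 3 bases, A3G, U9A and A10U. miR-196a-5p is made from 2 genes, and their 3p strands, miR-196a-1-3p and miR-196a-2-3p, differ at 17 of 22 bases.

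Each of the 4 Hox clusters holds at least 1 of these genes. In GENCODE annotation of GRCm38, Mir10a is at chr11:96317165-96317274 on the plus strand, in the HoxB cluster, 992 bases before Hoxb4 and in no annotated gene. Mir10b is at chr2:74726070-74726137 on the plus strand, in HoxD, inside introns of Hoxd4 and Hoxd3. Mir196a-1 is at chr11:96265164-96265265 on the plus strand, in HoxB, between Hoxb13 and Hoxb9, 6191 bases before Hoxb9. Mir196a-2 is at chr15:102973350-102973434 on the plus strand, in HoxC, between Hoxc10 and Hoxc9, in an intron of a noncoding Hoxc5 transcript. Mir196b is at chr6:52230081-52230165 on the minus strand, in HoxA, 1031 bases after Hoxa10, in noncoding transcripts of Hoxa9, of which 2 have it in an exon and 1 in an intron.

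**Figure D1:**
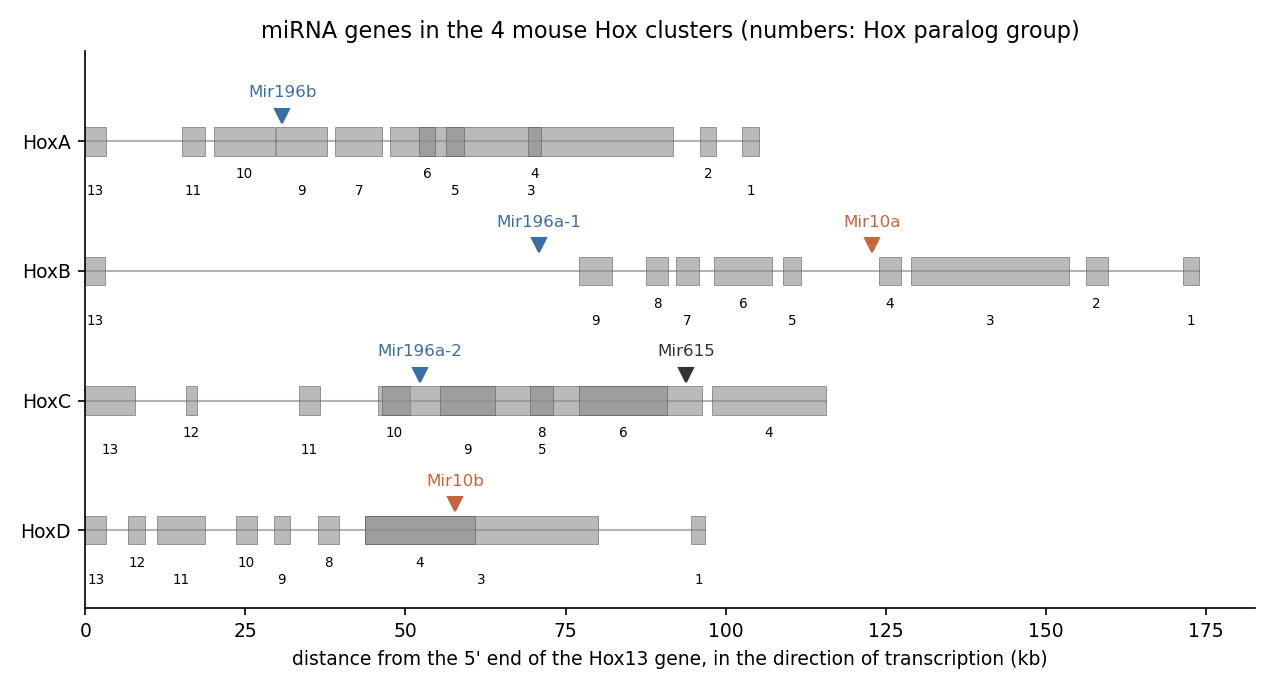
Map of the 4 mouse Hox clusters (rows), drawn in kb from the 5′ end of the Hox13 gene in the direction of transcription; grey boxes are Hox genes with their paralog number below, and triangles mark Mir10 genes in orange, Mir196 genes in blue and Mir615 in black. In HoxB, the only cluster that holds genes of both families, Mir196a-1 sits on the Hox13 side of Mir10a.

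The tables give log2(RPM + 1), where RPM is the reads of a miRNA per 1000000 mappable reads. In each sample 1 read was worth a fixed RPM, between 0.177 and 0.211, so reads could be recovered. Mappable reads ran from 4732359 to 5657704. The share of them that was miRNA was 33.6% in NC-1 and 43.6% in NC-2, against 56.3% in GAA-1 and 50.4% in GAA-2, higher in both GAA samples. Levels are therefore given also as a share of summed miRNA RPM. The 7 skeletal muscle markers all had at least 1 RPM in every sample and summed to 10480 to 13715 RPM, of which miR-486a-5p gave 4849 to 6700. Of the 7, 5 were lower in both GAA samples than in both NC samples, beside 2.7% of the 371 miRNAs with at least 1 RPM in every sample. Among the 5, miR-133a-3p had 3059 and 3787 RPM in NC and 2251 and 2409 in GAA. Also among them, miR-208b-3p had 18.7 and 17.8 RPM in NC and 3.05 and 1.41 in GAA. The groups overlapped for miR-133b-3p, with 2020 and 2691 RPM in NC and 1829 and 2104 in GAA. They overlapped too for miR-486a-5p, with 4849 and 6615 RPM in NC and 6700 and 5640 in GAA. Of 20 markers of liver, neural, blood, epithelial and pluripotent cells, 5 had no reads, namely the 5 of pluripotent cells, and the 20 summed to 43.7 to 92.5 RPM. The highest of the 20 was the neural marker miR-9-5p, with 27.8 and 41.2 RPM in NC and 59.5 and 43.0 RPM in GAA, while miR-124-3p, the other neural marker, stayed at or under 0.359 RPM. The blood markers summed to 9.75 and 9.09 RPM in NC and 20.8 and 15.2 RPM in GAA. Most of this was miR-142a-5p, with 6.09 and 7.18 RPM in NC and 16.9 and 13.4 in GAA, while miR-451a was lower in GAA, with 2.03 and 0.845 RPM in NC and 0.719 and 0.177 in GAA. In RPM, both GAA samples were above both NC samples for 64.4% of the 371 miRNAs, so a rise on this scale was common. The part of the markers in the results below was not tested. In whole-culture RNA, fewer cells making a miRNA and less of it per cell cannot be told apart.

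miR-196a-5p was the most abundant of the 6. It had 2404.5 reads in NC-1 and 3653 in NC-2, against 4365.5 in GAA-1 and 3437 in GAA-2, of which the values in NC-1 and GAA-1 are not whole. In RPM these were 488, 772, 784 and 607. By mean RPM over the samples it stood at place 60 of 869 miRNAs, between miR-181b-5p and miR-101c.

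miR-10a-5p, the HoxB member of its family, followed with 1532 reads in NC-1 and 2569 in NC-2, against 4014 in GAA-1 and 2574 in GAA-2. These were 311, 543, 721 and 455 RPM, and place 72. miR-196b-5p, from HoxA, had 779, 1172, 1532 and 1059 reads in the same order of samples, which were 158, 248, 275 and 187 RPM, and place 95. miR-10b-5p, from HoxD, had 86, 142, 130 and 122 reads, which were 17.5, 30.0, 23.4 and 21.6 RPM, and place 207. The order miR-196a-5p, miR-10a-5p, miR-196b-5p, miR-10b-5p was the same in all 4 samples.

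The first step of this order was the smallest. Within a sample, miR-196a-5p exceeded miR-10a-5p by 1.57-fold in NC-1 and 1.42-fold in NC-2, against 1.09-fold in GAA-1 and 1.34-fold in GAA-2, and the ranges of the 2 miRNAs over samples overlap. In NC they had 630 ± 201 and 427 ± 164 RPM (SD, n = 2), a difference of about the size of the spread. miR-10a-5p exceeded miR-196b-5p by 1.97-fold to 2.62-fold, with no overlap of their ranges. The last step was the widest of the 3, with miR-196b-5p at 8.25-fold to 11.8-fold of miR-10b-5p. Ligation and amplification can favour one small RNA over another, and their part in these levels was not tested.

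**Figure D2:**
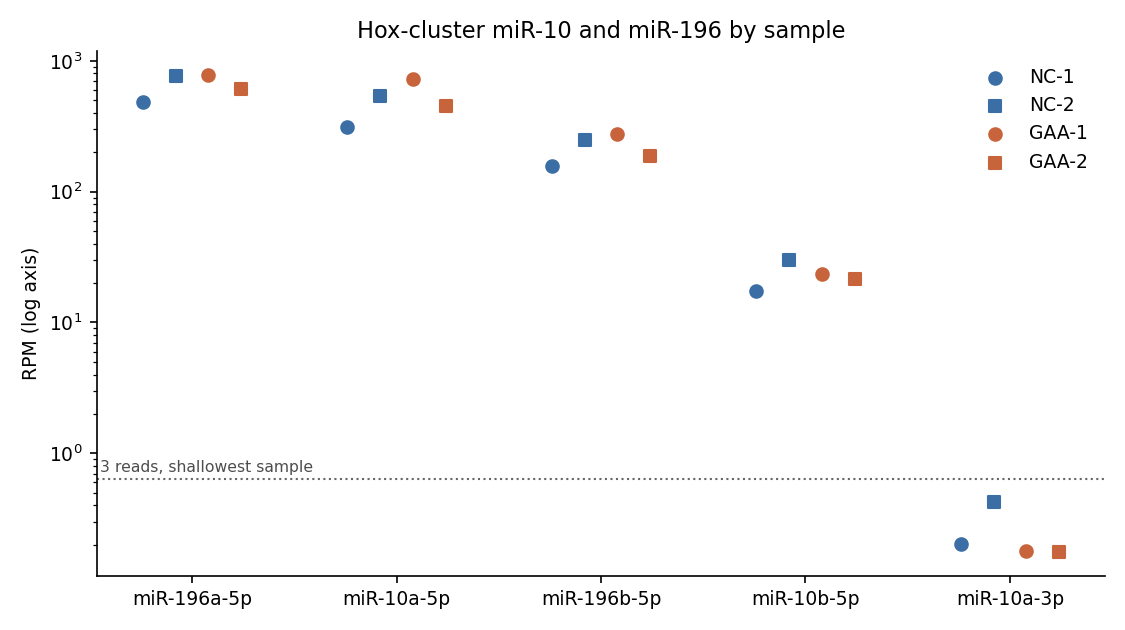
RPM on a log axis of the 5 miRNAs with reads (columns), with 1 point per sample, NC in blue, GAA in orange, circles for replicate 1 and squares for replicate 2; the dotted line is the RPM of 3 reads in the sample with the fewest mappable reads. miR-196a-5p runs from 488 to 784 RPM and miR-10b-5p from 17.5 to 30.0 RPM, and miR-10a-3p lies under the line in every sample.

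The 3p strands of the miR-10 genes were at the limit of detection. miR-10a-3p had 1 read in NC-1 and 2 in NC-2, with 1 in each GAA sample, all under the 3 reads taken as the floor, so no fold change is given. Of the reads of both miR-10a arms it made up 0.0652%, 0.0778%, 0.0249% and 0.0388% in the same order. miR-10b-3p had no reads in any sample, which allows a level of up to 0.530 RPM in GAA-2 to 0.634 RPM in NC-2. Against 86 to 142 reads of the 5p arm, 3 reads would be 2.11% to 3.49%, so for miR-10b an arm share as low as that of miR-10a was not detectable at this depth.

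The 2 genes of miR-196a-5p could be separated through their 3p strands. miR-196a-2-3p, from HoxC, had 247, 288, 403 and 269 reads, with NC-1 first, then NC-2, GAA-1 and GAA-2. miR-196a-1-3p, from HoxB, had none in any sample, so at most 3 reads, 0.0687% to 0.125% of the reads of miR-196a-5p. The 3p strand of a gene may be kept at any rate, so these reads do not divide miR-196a-5p between its genes. miR-196a-2-3p amounted to 9.32%, 7.31%, 8.45% and 7.26% of its own reads plus those of miR-196a-5p. miR-196b-3p was rarer beside its guide strand, with 6, 4, 7 and 9 reads, 0.340% to 0.843% of both arms.

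Reads given to names from all 4 clusters were thus present. Those of HoxD were all miR-10b-5p, which differs from miR-10a-5p by 1 base. Reads of miR-10a-5p misread at that base could be among them. Of the reads of the 6 members and 5 further strands from these clusters (miR-196a-1-3p, miR-196a-2-3p, miR-196b-3p, miR-615-3p and miR-615-5p), HoxB alone gave 25.7% in NC-1 and 30.1% in NC-2, against 32.3% in GAA-1 and 27.0% in GAA-2. HoxA gave 11.2% to 13.8% and HoxD 1.04% to 1.66%. HoxC alone gave 19.2%, 11.7%, 19.3% and 24.5%, most of it miR-615-3p. The remaining 35.1% to 42.8% were miR-196a-5p, which HoxB and HoxC share. HoxD had the fewest reads of the clusters in each sample.

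The paralogs of the miR-10 family stood far apart. miR-10a-5p exceeded miR-10b-5p by 17.8-fold in NC-1 and 18.1-fold in NC-2, against 30.9-fold in GAA-1 and 21.1-fold in GAA-2. As a share of the 2 together, miR-10b-5p made up 5.32% of NC-1, with a 95% Wilson interval of 4.32 to 6.52, and 5.24% (4.46 to 6.14) of NC-2. In GAA it made up 3.14% (2.65 to 3.71) for GAA-1 and 4.53% (3.80 to 5.38) for GAA-2. Both GAA samples were lower than both NC samples, the interval of GAA-1 lay apart from both NC intervals and that of GAA-2 overlapped them. The log2 ratio of miR-10b-5p to miR-10a-5p was lower in GAA by 0.51, with -4.17 ± 0.02 in NC and -4.67 ± 0.39 in GAA (SD, n = 2). The exact two-sided permutation test gave p = 0.333, the smallest that 2 against 2 samples allow, and 0.75 after Benjamini-Hochberg adjustment over the 9 ratios compared. Without GAA-1 the difference was -0.23 and without GAA-2 -0.78. Intervals cover counting error only.

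The ratio of the paralogs of the miR-196 family stayed within a narrow range. miR-196b-5p was 24.5% of the 2 in NC-1 and 24.3% in NC-2, against 26.0% in GAA-1 and 23.6% in GAA-2. The Wilson intervals of GAA-1 (24.9 to 27.1) and GAA-2 (22.3 to 24.8) did not overlap, so these samples differed beyond counting error. The log2 ratio differed by 0.03 between groups, against SDs of 0.01 in NC and 0.13 in GAA, and the exact permutation p was 1.0 (n = 2 per group). Between the families, miR-10a-5p was 38.9% and 41.3% of itself plus miR-196a-5p in NC and 47.9% and 42.8% in GAA. It was higher in both GAA samples (exact permutation p = 0.333, 0.75 adjusted, n = 2 per group). miR-10b-5p beside miR-196b-5p was 9.94%, 10.8%, 7.82% and 10.3%, with the samples in the order NC-1, NC-2, then GAA-1 and GAA-2, where the groups overlap.

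**Figure D3:**
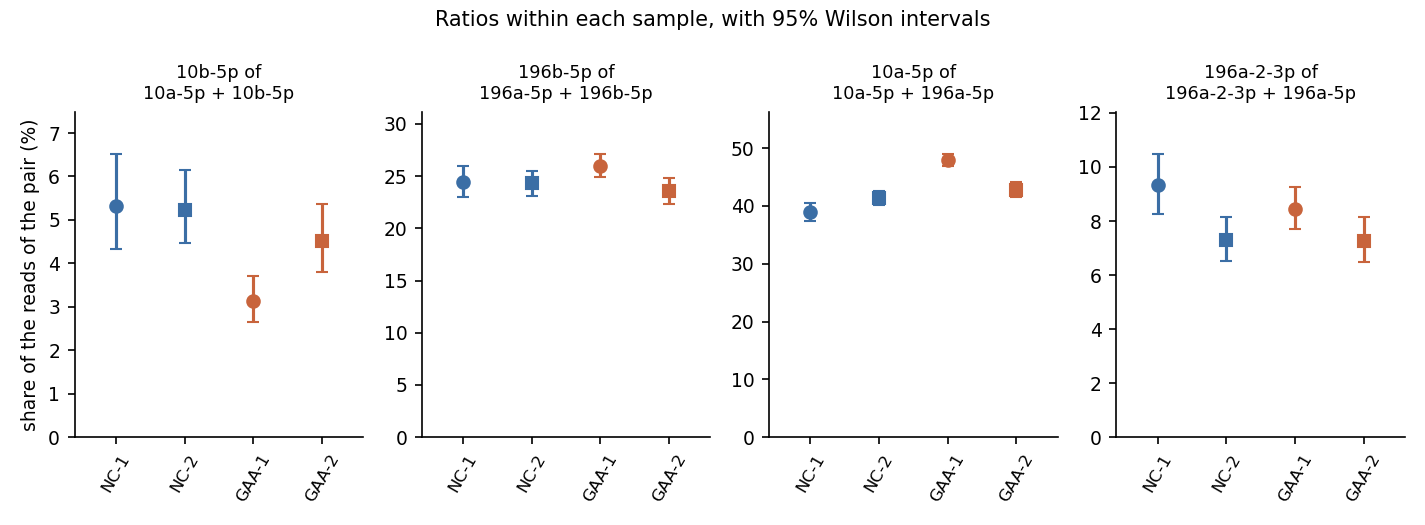
Share of the reads of a pair (y axis, %) that belongs to the first miRNA named, in each sample (x axis), with 95% Wilson intervals for counting error; each panel has its own y axis from 0. The miR-10b-5p share is 3.14% and 4.53% in GAA against 5.32% and 5.24% in NC, while the miR-196b-5p share stays between 23.6% and 26.0%.

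The comparison of NC with GAA asks whether guanidinoacetic acid changed these levels. In RPM, none of the 4 guide strands separated the groups, since for each of them NC-1 or NC-2 lay among or above the GAA values. miR-10a-5p was 427 ± 164 RPM in NC and 588 ± 188 in GAA, a log2 fold change of 0.48 (SE 0.39, 95% interval -0.61 to 1.56). miR-10b-5p was 23.7 ± 8.87 and 22.5 ± 1.27 RPM, a log2 fold change of -0.03 (SE 0.31, interval -0.89 to 0.83). Neither change is larger than the spread between samples.

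miR-196a-5p was 630 ± 201 RPM in NC and 696 ± 125 in GAA, a log2 fold change of 0.17 (SE 0.30, interval -0.67 to 1.0). miR-196b-5p was 203 ± 63.3 and 231 ± 62.3 RPM, a log2 fold change of 0.20 (SE 0.33, interval -0.72 to 1.11). All fold changes are on the log2(RPM + 1) scale, with SDs over n = 2. With limma over all 869 miRNAs, the Benjamini-Hochberg adjusted p was 0.524 for miR-10a-5p, 0.946 for miR-10b-5p, 0.724 for miR-196a-5p and 0.707 for miR-196b-5p. In RPM, the intervals of miR-10a-5p and of both miR-196 strands reach a log2 change of 1.0 or more, so a rise of that size is not excluded on this scale.

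None of the members passed the test, and neither did any other miRNA. Requiring an FDR under 0.01 together with a log2 fold change beyond 1 in either direction, limma called 0 of 869 (0%), while 152 (17.5%) had an unadjusted p under 0.05, none of them a member. Of the 371 miRNAs with at least 1 RPM in every sample, both GAA samples were above both NC samples for 239 (64.4%) and below for 10 (2.7%). The members among the 371 were the 4 guide strands, with 0 above and 0 below. The median log2 fold change in RPM was 0.18 over these 4 and 0.49 over the 371.

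As shares of miRNA RPM, the values of the members were mostly lower in GAA. miR-196a-5p was 0.145% in NC-1 and 0.177% in NC-2, against 0.139% in GAA-1 and 0.121% in GAA-2, the GAA values both being the lower. Its log2 fold change was -0.31 (SE 0.20, interval -0.75 to 0.13). miR-10b-5p was 0.00520%, 0.00687%, 0.00415% and 0.00428%, again with both GAA samples lower, and had a log2 fold change of -0.50 (SE 0.25, interval -1.06 to 0.07). Its counting intervals in NC-1 and the GAA samples overlap.

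For the other 2 guide strands the groups overlapped in share too. miR-196b-5p was 0.0471%, 0.0567%, 0.0489% and 0.0371%, with both NC samples given first, a log2 fold change of -0.28 (SE 0.21, interval -0.76 to 0.20). miR-10a-5p was 0.0926%, 0.124%, 0.128% and 0.0903%, a log2 fold change of 0.00 (SE 0.23, interval -0.52 to 0.53). The limma adjusted p was 0.777 for miR-196a-5p, 0.693 for miR-10b-5p, 0.781 for miR-196b-5p and 0.996 for miR-10a-5p. Direction therefore depended on the scale for both miR-196 strands, positive in RPM and negative in share.

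**Figure D4:**
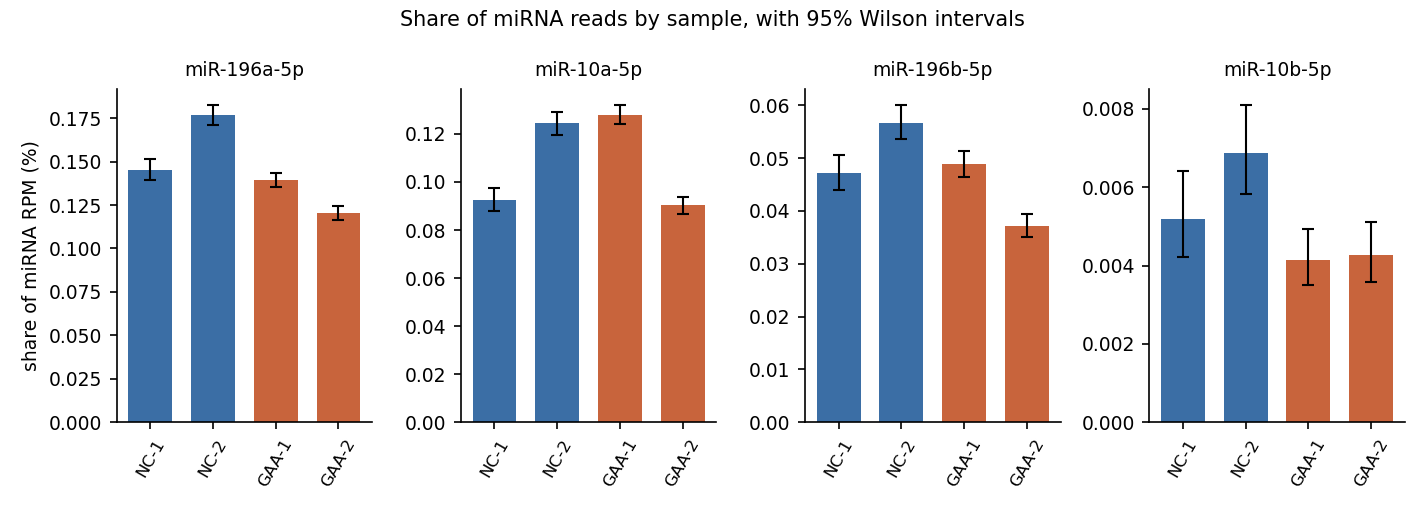
Share of summed miRNA RPM (y axis, %, from 0 and separate for each panel) of the 4 guide strands in each sample, NC in blue and GAA in orange, with 95% Wilson intervals for counting error. For miR-196a-5p and miR-10b-5p both GAA bars are lower than both NC bars, and for miR-10a-5p NC-2 and GAA-1 are the high samples.

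Over all miRNAs, 70 (8.06%) had an unadjusted p under 0.05 in share, none of them a member. Of the 371, both GAA samples were above both NC samples for 83 (22.4%) and below for 68 (18.3%). Of the 4 guide strands, 0 were above and 2 below. The median log2 fold change in share was -0.29 over the 4 and 0.04 over the 371.

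The samples within a group differed in the same order for these miRNAs in RPM. NC-2 was above NC-1 for all 4 guide strands, by 0.80, 0.75, 0.66 and 0.64 on the log2 RPM scale for miR-10a-5p, miR-10b-5p, miR-196a-5p and miR-196b-5p. The median absolute gap over the 323 miRNAs that reached 10 reads in each sample was 0.27, and the gaps of the 4 were larger than those of 87.9% to 95.4% of the 323. In share the same gaps were 0.42, 0.40, 0.28 and 0.27, larger than those of 51.4% to 76.2% of the 323. GAA-1 was above GAA-2 by 0.66, 0.11, 0.37 and 0.55 in RPM, larger than the gaps of 17.6% to 82.7% of the 323. In share miR-10b-5p had the opposite order, with a gap of -0.04. Over the 323, the median gap in RPM with its sign was 0.21 for NC-2 over NC-1 and 0.25 for GAA-1 over GAA-2. The order in RPM was thus not particular to the 4. In share these medians were -0.15 and 0.09. The sign of the change in RPM then rested on single samples for 3 of the 4: without NC-1 it was -0.16 for miR-196a-5p and -0.13 for miR-196b-5p, without GAA-1 it was -0.02 and -0.08, and for miR-10b-5p it was 0.34 without NC-2 and 0.03 without GAA-2.

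The further Hox-cluster strands were read beside the members. miR-196a-2-3p was 50.2 and 60.9 RPM in NC and 72.4 and 47.5 RPM in GAA, overlapping, with a log2 fold change of 0.09. In share it was 0.0149% and 0.0139% in NC and 0.0129% and 0.00944% in GAA, a log2 fold change of -0.39. Both GAA samples were thus below both NC samples in share, which held for 18.3% of the 371 miRNAs with at least 1 RPM in every sample. miR-615-3p lies in an intron of Hoxc5, 41475 bases from Mir196a-2 in the same cluster. Its reads numbered 897 and 703 in NC, and 1983 and 2054 in GAA, or 182, 149, 356 and 363 RPM. Both GAA samples were above both NC samples on either scale, which held for 64.4% of the 371 in RPM and 22.4% in share. Its log2 fold change was 1.12 (SE 0.18, interval 0.64 to 1.61) in RPM and 0.65 (SE 0.24, interval 0.11 to 1.19) in share, with limma adjusted p of 0.205 and 0.504, so it was not called. Of these 5 further strands, of which 4 had reads and could be tested, 0 were called. An unadjusted p under 0.05 was found for 2 in RPM, miR-615-3p and miR-615-5p, and for 1 in share, miR-615-3p, beside 17.5% and 8.06% of all 869. miR-615-5p had 1 read in NC-1, under the floor of 3 reads, and 6, 12 and 17 in the other samples. Within each sample, miR-615-3p was 78.4% and 70.9% of itself plus miR-196a-2-3p in NC and 83.1% and 88.4% in GAA, higher in both GAA samples (exact permutation p = 0.333, 0.75 adjusted, n = 2 per group).

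**Figure D5:**
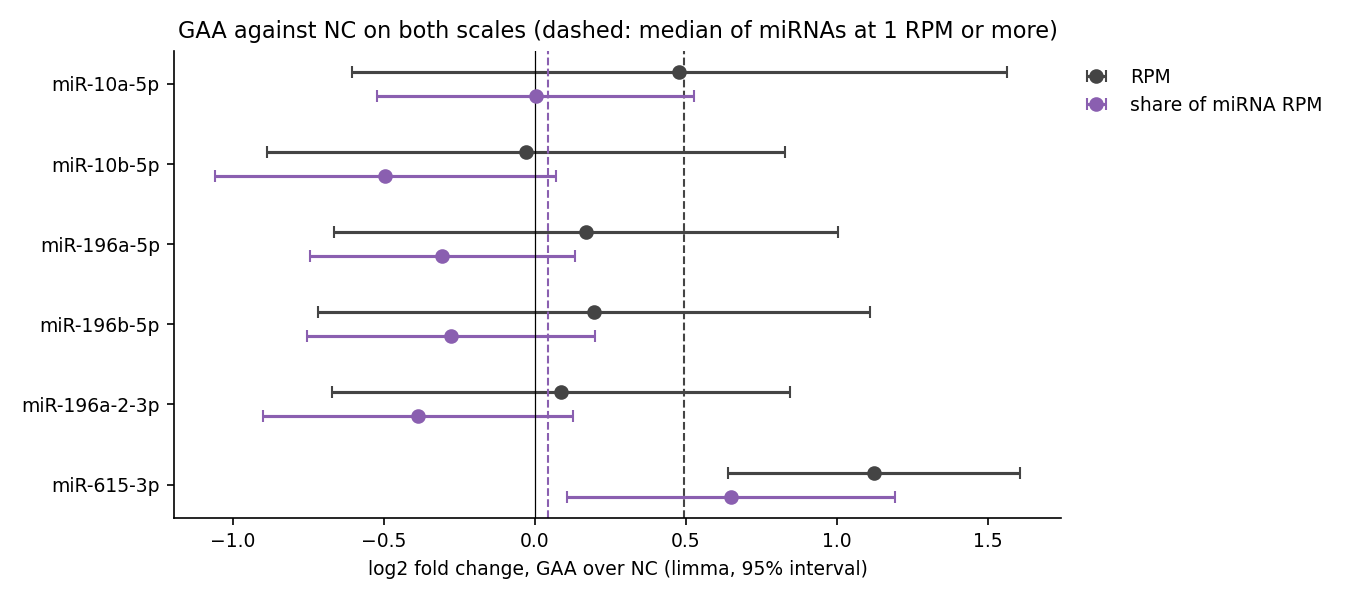
log2 fold change of GAA over NC (x axis) with 95% limma intervals for the 4 guide strands and 2 further Hox-cluster strands (rows), in RPM (grey) and in share of miRNA RPM (purple); dashed lines are the medians of the 371 miRNAs with at least 1 RPM in every sample, 0.49 and 0.04. The intervals of the 4 guide strands hold 0 on both scales, and those of miR-615-3p do not.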

How the data were processed

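Small RNA of 4 samples was sequenced on an Illumina HiSeq instrument. Adaptors, reads of low quality and repeated sequences were taken out by the authors, who mapped what remained to GRCm38.p5 with miRDeep2, matched it to miRBase and divided the reads of each known miRNA by mappable reads. Removing repeated sequences could lower abundant miRNAs, and its extent is not given in the sources used here. Each deposited value is on a log2 scale, as log2(RPM + 1). The base was read from the values, and reads were recovered from the step of 1 read, with 95.6% of values whole within 0.02 reads. A miRNA without a row was set to 0.

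The groups were compared by limma 3.58.1 (R 4.3.3, eBayes with trend) on log2(RPM + 1) of all 869 miRNAs with reads in any sample, with Benjamini-Hochberg adjustment, and a miRNA was called where the FDR was under 0.01 and the log2 fold change beyond 1 in either direction. For shares, RPM was divided by the summed miRNA RPM of the sample. Ratios were compared by exact two-sided permutation tests. Wilson intervals are at 95%, and 3 reads were taken as the floor. The fit was tested on simulated data with less noise and larger changes than the data here. That test does not show how small a change could be found in these samples. miRNA reads were 1653803 and 2065461 in NC and 3134241 and 2850828 in GAA, so that 3 reads were 0.000181%, 0.000145%, 0.0000957% and 0.000105% of them.

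Named miRNAs were the 6 members, other miRNAs of the Hox clusters, miR-99 and miR-100, the 2 miRNAs nearest in pattern to each member with at least 10 reads in every sample, and neighbours in level of the most abundant member. Marker miRNAs of muscle and other cells were listed too. The members and lists were chosen with earlier results of these data known. Loci are from GENCODE M21 (GRCm38) and mature sequences from RefSeq (GRCm38.p6), where every member was matched. An annotated miRNA gene in HoxD, Gm44463, has no miRNA name to match and was not analysed here. The labels name no batch.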

Additional observations from a re-analysis of the deposited data

How the results depend on the processing

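No member was called under any alternative tried. The count of called miRNAs was 0 in the main analysis and 1 after division by summed miRNA RPM, 1 with median-of-ratios size factors, and 6 with the replicate number as a block together with that division. The replicate block in RPM gave 0. Deviations of same-numbered samples had r = -0.15 over 323 miRNAs, so that same-numbered samples did not deviate together; with the GAA numbers crossed, an alternative added after seeing the data, the count was 0 in RPM and 6 with the division. At an FDR under 0.05 and no fold limit, the count in RPM was 0 with all samples, 103 without GAA-1 and 97 without GAA-2. With all samples it was 1 after the division, 1 with median-of-ratios factors, 14 with the block and the division, and 19 with the crossed block and the division.

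With the replicate block in RPM, the log2 fold change of miR-10a-5p was 0.48, with an interval of -0.52 to 1.47. With the crossed block in RPM, added after seeing the data, its interval was 0.10 to 0.85 (limma adjusted p = 0.150). Those of the other guide strands held 0 in that setting. The log2 fold change of miR-10a-5p was -0.052 with median-of-ratios factors. That of miR-196a-5p was -0.31 after division by summed miRNA RPM, with or without the replicate block, and -0.36 with median-of-ratios factors. That of miR-196b-5p was -0.28 and -0.33 in the same settings. Leaving out 1 sample at a time gave 0.08 to 0.88 for miR-10a-5p, -0.40 to 0.34 for miR-10b-5p, -0.16 to 0.50 for miR-196a-5p and -0.13 to 0.52 for miR-196b-5p, and -0.78 to -0.23 for the log2 ratio of miR-10b-5p to miR-10a-5p. A group left with 1 sample is then assumed to vary like the other group. The median over 371 miRNAs moved from 0.49 in RPM to 0.04 in share and -0.01 with median-of-ratios factors; the cause was not tested. Depth limits the 3p strands of miR-10.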

Other observations

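Relatives of miR-10 outside the Hox clusters, miR-99a, miR-99b and miR-100, share much of its sequence but not its seed, and miR-10a-5p and miR-100-5p have a run of 11 bases in common. miR-99b-5p was the most abundant of them, at 4820 and 2821 RPM in NC and 8448 and 6779 RPM in GAA, place 13 of 869. Its log2 fold change was 1.04 in RPM (limma adjusted p = 0.272) and 0.56 in share. miR-100-5p was 395 and 270 RPM in NC and 543 and 463 RPM in GAA, a log2 fold change of 0.62 in RPM and 0.14 in share. miR-99a-5p was 107 and 124 RPM in NC and 170 and 156 RPM in GAA, a log2 fold change of 0.50 in RPM and 0.02 in share. Of the 6 strands of these relatives, 0 were called. An unadjusted p under 0.05 was found for 3 in RPM and 0 in share, beside 17.5% and 8.06% of all 869. All 6 had at least 1 RPM in every sample. When only the 371 miRNAs at that level were fitted, 115 had an unadjusted limma p under 0.05 in RPM. Both GAA samples were above both NC samples for 5 of the 6 in RPM and 1 in share. This held for 64.4% and 22.4% of the 371 miRNAs with at least 1 RPM in every sample. Both GAA samples were below both NC samples for 0 in RPM and 2 in share, beside 2.7% and 18.3% of the 371. The 2 were miR-99a-3p and miR-100-3p, the latter with 5 to 9 reads. The log2 fold change of miR-99a-3p was -0.13 in RPM and -0.60 in share.

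The pattern over the 4 samples was compared with that of 322 other miRNAs, as the root mean square difference of centred log2 RPM values, which is a description over 4 points. Nearest to miR-196b-5p was miR-148a-3p, at 0.025, then miR-471-5p, at 0.050. Nearest to miR-196a-5p were miR-182-5p, at 0.043, and miR-148a-3p, at 0.046, and nearest to miR-10a-5p were miR-148b-3p, at 0.062, and miR-30d-5p, at 0.082. For miR-10b-5p they were miR-1839-5p, at 0.068, and miR-181a-5p, at 0.080. Within the families, miR-196b-5p lay 0.067 from miR-196a-5p, at place 5 among the neighbours of miR-196a-5p. miR-10b-5p lay 0.32 from miR-10a-5p, at place 163 among the neighbours of miR-10a-5p.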
